A study of Mus musculus with 6 samples.

Results

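DES epithelial cluster 3 is 1 of the 16 groups into which the study's authors divided the epithelial cells of the DES-exposed mouse uterus by their single-cell RNA profiles. Its members were taken from the authors' own assignment and required to have a column of counts: 505 cells did, and 1 assigned cell had none. They made up 10.96% of the 4608 DES epithelial cells that hold a cluster number and counts (exact Clopper-Pearson 95% interval 10.1% to 11.9%), out of 16312 cells in the DES library and 48699 cells in the series. The other 15 clusters, with 4103 cells, serve as the comparison.

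Newborn CD-1 mice received diethylstilbestrol (DES), a synthetic oestrogen, at 1 mg/kg/day or the corn oil vehicle (CO) by injection on days 1 to 5, and the uterine horns were collected at 12 months of age. The CO mice were in oestrus and the DES mice in the persistent oestrus that this exposure produces. The cells came from 1 library of 2 pooled CO mice and 1 library of 4 pooled DES mice, loosened with trypsin, and frozen sections of 2 CO and 2 DES mice, the DES sections examined for adenocarcinoma beforehand, were measured by spatial transcriptomics on 1 slide. The 4 DES mice cannot be told apart within the library, so the number of mice that contributed to cluster 3 is unknown and no test over animals is possible for the cells. The clusters were formed on the same counts that are compared below, so the ratios describe the cluster and are not evidence that it exists.

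The lining of the uterus is a single layer of epithelial cells that continues into glands. These cells secrete antimicrobial proteins into the lumen, and under inflammatory signals they can also take on the machinery with which immune cells present peptides: MHC class II molecules, their chaperone Cd74 and the regulator Ciita. Neonatal DES disturbs the formation of glands and the separation of luminal from glandular cells, and the exposed uterus develops adenocarcinoma in later life.

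The cells carried the epithelial markers of their label. Epcam, the adhesion molecule that marks epithelium, was detected in 504 of 505 cells, against 33.7% of DES mesothelial cells, and stood at 835 CPM (the gene's unique molecular identifiers, UMIs, each counted as 1 captured transcript, scaled to equal totals of all UMIs per group), against 804 CPM in the other clusters. Over all cells the keratins of simple epithelium were at the same or a higher level: Krt8 was at 997 CPM against 859 CPM and Krt18 at 730 CPM against 676 CPM. Krt19 was at 1023 CPM against 641 CPM, the highest of the 16 clusters. Among cells of 10000 to 20000 UMIs its log2 ratio was 0.22 where all cells gave 0.67. The 4 simple keratins listed had a median log2 ratio of -0.11 among those cells and summed to 3209 CPM against 3257 CPM. Of the 8 epithelial markers listed, 3 were lower over all cells. Cdh1, the cadherin of epithelial junctions, was at 123 CPM against 187 CPM, the lowest of the 16 clusters. The claudins were Cldn4, at 40.6 CPM against 50.7 CPM, and Cldn7, at 616 CPM against 683 CPM. Basal cells, which the authors took out before clustering by their joint Krt14 and Trp63 counts, numbered 0 by the same rule. The 6 lymphocyte markers summed to 4.98 CPM, the 4 endothelial markers to 2.32 CPM and the 5 muscle and pericyte markers to 4.54 CPM. The stromal list reached 130 CPM, of which Dcn, a matrix proteoglycan, made up 126 CPM. The other stromal markers were between 0 and 2.43 CPM, with Dpt at 0. The myeloid list reached 76.9 CPM, of which Cd68 made up 55.3 CPM.

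Cluster 3 was shallow. A member held a median of 14770 UMIs and 3616 genes, the second lowest of the 16 clusters, against 27283 UMIs over the cells of the other clusters, and 9036905 UMIs were summed over its cells. The median share of mitochondrial UMIs was 11.9% against 11.5% in the other cells. A filter of at least 1000 UMIs and at most 20% mitochondrial UMIs would keep 469 of 505 members and 3950 of 4103 other cells. Ribosomal protein UMIs had a median of 28.6% per cell against 25.5%. Between the libraries 180 cell barcodes were shared, and 5 members carried one (0.990% of the cluster, against 0.926% of the other cells). Below, levels carry exact Poisson 95% intervals and shares of cells exact Clopper-Pearson intervals where printed, all of which cover counting error only.

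Among the 2795 genes at 50 CPM or more in cluster 3 or in the other clusters, 23 were at least 1.5-fold higher in cluster 3 (0.823%) and 115 at least 1.5-fold lower (4.11%). Lower genes outnumbered higher genes in 10 of the 16 clusters. No other cluster had fewer genes 1.5-fold above its own rest (23 to 226 over the 16 clusters), while 8 clusters had fewer genes below it. The lowest ratios reached 28.2-fold, and the highest was 2.27-fold. The median log2 ratio over the 2795 genes was -0.06.

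**Figure D1:**
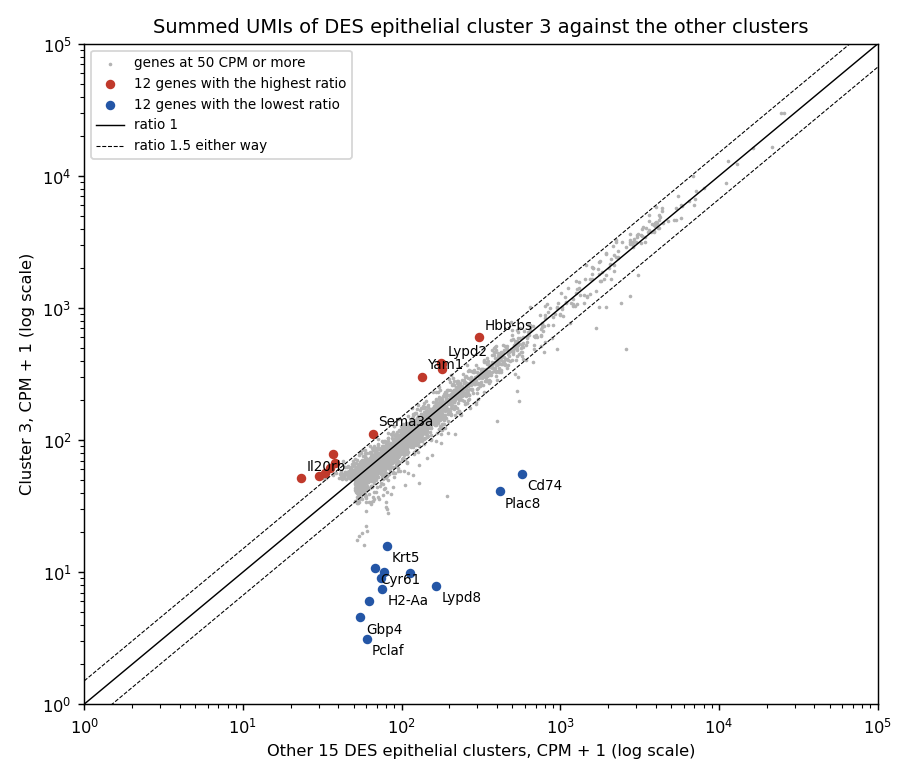
Each point is a gene; the x axis gives its level summed over the other 15 DES epithelial clusters and the y axis its level in cluster 3, both as CPM + 1 on log scales. The 12 genes with the highest ratio (red) lie close above the line of equality, at most 2.27-fold, and the 12 with the lowest ratio (blue) lie far below it, from 5.36-fold to 28.2-fold.

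The MHC class II genes were low as a group. Of the 9 listed, 6 were at 10 CPM or more in cluster 3 or in the other clusters, and all 6 were at least 1.5-fold lower in cluster 3, with a median log2 ratio of -3.23. Over the 8144 genes at that level, 5.06% were 1.5-fold lower, 1.31% were 1.5-fold higher and the median log2 ratio was -0.07. The genes for the class II chains lie together on mouse chromosome 17 (GRCm38): H2-Ab1 at 34257689 to 34269419, H2-Aa at 34282744 to 34287823 and H2-Eb1 at 34305867 to 34316674. The stretch just before the start of H2-Aa and of H2-Eb1 is shown here because the class II promoters share an element, the X box followed by the Y box, to which the factors that recruit Ciita bind. Both are printed 5′ to 3′ on the gene's strand from the RefSeq promoters of GRCm38.p6, with capitals for the letters GCAAC of the X box core and ATTGG of the Y box.
H2-Aa, chr17:34287847-34287924, minus strand: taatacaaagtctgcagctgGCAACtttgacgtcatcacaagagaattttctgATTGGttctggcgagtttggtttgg
H2-Eb1, chr17:34305756-34305832, plus strand: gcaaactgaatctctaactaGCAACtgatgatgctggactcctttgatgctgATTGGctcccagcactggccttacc

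The letters stood 28 bases apart in H2-Aa and 27 bases apart in H2-Eb1. GCAAC followed by ATTGG after 15 to 35 bases, on either strand, was present in 4 of the 7 promoters listed for the 6 class II genes with an entry, and in 1.02% of the 32851 promoters of the same length. The 4 were those of H2-Aa, H2-Eb1, H2-Oa and H2-Ob, of which H2-Oa and H2-Ob had 1 UMI each in cluster 3, and the promoters listed for H2-DMa and H2-DMb1 did not hold the pair. Each set of letters alone was common: ATTGG was in 37.4% and GCAAC in 35.2% of all promoters. The letters were chosen with these promoters in view, and a match describes the sequence only. Promoters of H2-Ab1, Cd74 and Ciita were not used here.

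Cd74, the invariant chain that guards the class II groove, was at 54.8 CPM in cluster 3 (50.1 to 59.8) and at 569 CPM in the other clusters, 10.4-fold lower (9.51 to 11.4). H2-Aa was 11.6-fold lower (9.001 to 15.3), H2-Ab1 8.52-fold lower (6.85 to 10.7) and H2-Eb1 17.1-fold lower (11.5 to 26.7). Ciita, the regulator of these genes, was at 0.443 CPM from 4 UMIs against 4.23 CPM. H2-DMa, which loads peptides onto class II, was at 4.32 CPM against 17.9 CPM, and its partner H2-DMb1 at 16.7 CPM against 25.2 CPM.

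The low level was shared with some clusters and not with others. Ordered by Cd74, the clusters ran from 32.6 CPM in cluster 13 through 41.2 CPM in cluster 12, 43.2 CPM in cluster 11, 47.4 CPM in cluster 8, 54.8 CPM in cluster 3 and 58.5 CPM in cluster 4 to 75.5 CPM in cluster 14. The remaining 9 clusters lay between 135 CPM in cluster 0 and 1628 CPM in cluster 7. H2-Aa, H2-Ab1 and H2-Eb1 divided the clusters at the same place. H2-Aa was between 3.68 and 11.6 CPM in the 6 clusters that stood with cluster 3, at 6.42 CPM in cluster 3 itself and between 11.9 and 230 CPM in the 9 others. For H2-Aa the 11.6 CPM of cluster 14 (7.68 to 16.7) and the 11.9 CPM of cluster 0 (10.4 to 13.4) lay within counting error. The line of 100 CPM that separates these groups of clusters was drawn after the values were seen.

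Cell by cell, after every cell was thinned to 5000 UMIs, Cd74 was found in 18.3% of 498 members (14.98% to 22.0%) and in 50.1% of 4003 other cells, with 7 and 100 shallower cells left out. Without thinning the shares were 41.6% and 74.3%. Of the 498 members, 75.9% had no UMI of Cd74, H2-Aa, H2-Ab1 or H2-Eb1, 21.7% had a UMI of 1 of these genes and 1 cell had all 4. Among the other cells 46.3% had none and 7.29% had all 4. Free RNA adds UMIs to cells that do not make a transcript. The DES mesothelial cells, of the outer lining of the uterus, had Cd74 in 34.997% of cells after thinning, at a median depth of 12329 UMIs. H2-Ab1 was at 73.2 CPM in the mesothelial cells. Whether this is their own RNA, and how much of the 18.3% in cluster 3 is free RNA, was not tested.

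**Figure D2:**
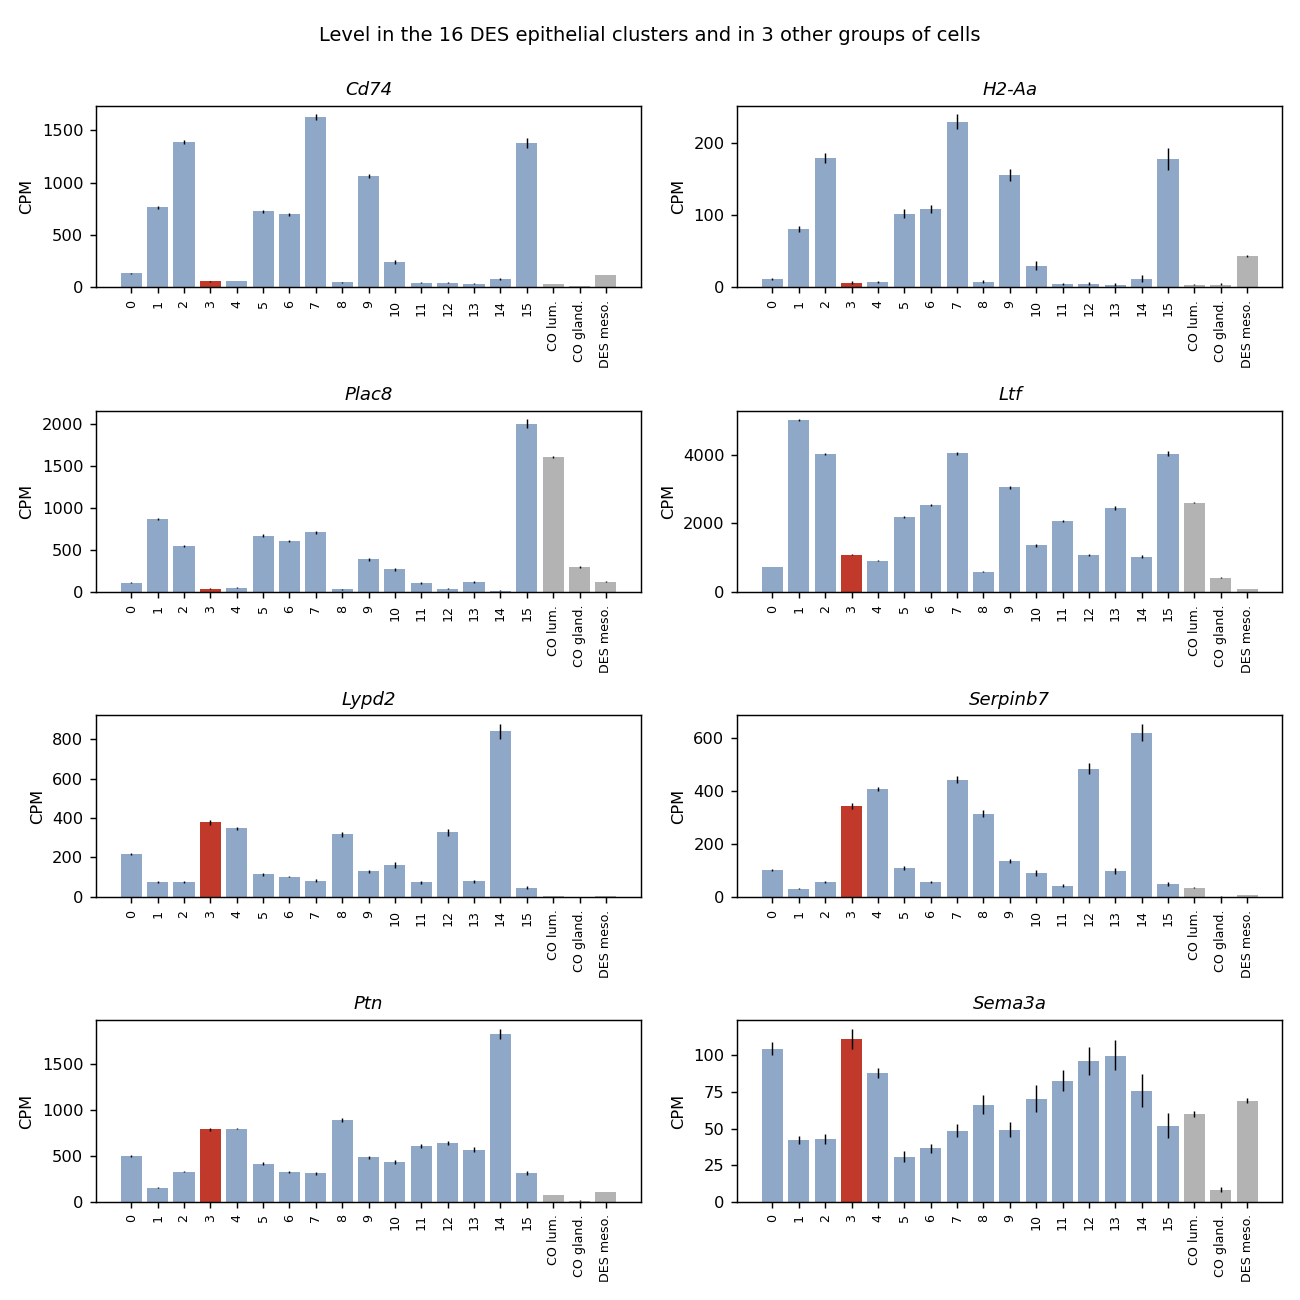
Bars give the level in CPM (y axis, linear from 0) in each of the 16 DES epithelial clusters, the luminal and glandular CO clusters and the DES mesothelial cells (x axis), with exact Poisson 95% intervals as lines. Cluster 3 (red) is among the low clusters for Cd74, H2-Aa and Plac8, at 54.8, 6.42 and 39.8 CPM, and among the high clusters for Lypd2, Serpinb7, Ptn and Sema3a, with clusters 4, 8, 12 and 14 near or above it for Lypd2 and Serpinb7.

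MHC class I was lower to a smaller degree. B2m, the light chain of every class I molecule, was at 234 CPM against 536 CPM, 2.30-fold lower (2.20 to 2.40), and the heavy chain H2-K1 at 391 CPM against 675 CPM. H2-D1 differed less, at 485 CPM against 534 CPM. Of the 14 class I presentation genes at 10 CPM or more, 5 were 1.5-fold lower and none was 1.5-fold higher, where 5.06% and 1.31% of all genes were. B2m also divided the clusters where Cd74 did, with 140 to 337 CPM in the 6 clusters of low Cd74 and 360 to 961 CPM in the 9 others, but H2-K1 did not, with 297 to 618 CPM and 440 to 1332 CPM.

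Interferon-stimulated genes were lower in part. Of 15 at 10 CPM or more, 8 were 1.5-fold lower and none was 1.5-fold higher, with a median log2 ratio of -0.70. Of all genes at that level 5.06% were lower and 1.31% higher by that fold. The sum of the interferon list was in the middle range, at 2487 CPM against 2781 CPM, place 10 from the highest of the 16 clusters. Gbp4, a GTPase that acts against intracellular microbes, was at 3.54 CPM against 54.0 CPM, 15.2-fold lower (10.8 to 22.3). Cluster 1 held 180 CPM of Gbp4, and the median of the other clusters was 20.6 CPM. Iigp1, a relative of Gbp4, was at 6.20 CPM against 27.5 CPM. Irf7, a transcription factor of the interferon response, was at 12.6 CPM against 29.8 CPM. Ifitm3, a membrane protein that hinders virus entry and the most abundant gene of the list, was at 2105 CPM against 2189 CPM.

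Secreted defence genes, some of them of high abundance, were mostly lower. Of 15 listed genes at 10 CPM or more, 11 were 1.5-fold lower, with a median log2 ratio of -0.98. The protease inhibitor Slpi (27.6 CPM against 18.1 CPM) was the 1 gene 1.5-fold higher. Over all genes at that level the shares were 5.06% lower and 1.31% higher. Ltf, the iron-binding lactoferrin that oestrogen drives in the mouse uterus, was at 1088 CPM against 2428 CPM, 2.23-fold lower (2.19 to 2.28). Ltf did not divide the clusters where Cd74 did. The 6 clusters of low Cd74 held 588 to 2441 CPM of Ltf and the 9 others 730 to 4998 CPM. Lcn2, which captures bacterial siderophores, was at 1240 CPM against 2739 CPM. Lcn2 did divide them there, with 556 to 2038 CPM and 2205 to 6253 CPM. C3, the central complement component, was at 488 CPM against 960 CPM. Pigr, the receptor that carries antibodies into the lumen, was at 110 CPM against 218 CPM and lowest of the 16 clusters. Fcgbp, a mucus protein, was at 196 CPM against 546 CPM. Prap1, a secreted protein of the uterine and gut lining, was at 486 CPM against 2587 CPM, 5.33-fold lower (5.17 to 5.49). The study uses Prap1 as a marker of developing glands. In the CO library Prap1 was at 45294.5 CPM in the glandular and 2377 CPM in the luminal clusters. Its place was 13 from the highest of the 16 clusters, whose other members ranged from 138 CPM in cluster 8 to 8956 CPM in cluster 5. Prap1 did not divide the clusters where Cd74 did, with 138 to 4724 CPM in the 6 and 600 to 8956 CPM in the 9. Wfdc2, an antiprotease of mucosal surfaces, was at 4032 CPM against 4111 CPM. A UMI of Ltf was in 91.6% and of Lcn2 in 97.8% of members after thinning, against 36.99% and 34.97% of DES mesothelial cells, where free RNA of these transcripts can be present.

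Transcripts that follow cell division were low, some of them to a few UMIs. Pclaf, a partner of PCNA in DNA replication, had 19 UMIs in all 505 cells, 2.10 CPM against 59.2 CPM, which is 28.2-fold lower (18.02 to 46.8). Top2a, the topoisomerase of dividing cells, was at 3.43 CPM against 33.0 CPM, and Mki67, a marker of cycling cells, at 1.11 CPM against 8.48 CPM. Cdk1, the kinase that drives entry into mitosis, was at 2.10 CPM against 19.1 CPM. Of the 9 cell cycle genes at 10 CPM or more, 7 were 1.5-fold lower and none was higher, where 5.06% of all genes were 1.5-fold lower. Pclaf and Top2a were lowest of the 16 clusters in cluster 3, and so was the sum of the list, at 234 CPM against 242 to 1818 CPM. The 242 CPM of cluster 1 lay within the counting error of that sum. The size of the ratio depends on the comparison cells. Pclaf was at 216 CPM in cluster 6 and 131 CPM in cluster 4, and the median of the other 15 clusters was 21.7 CPM. Without clusters 5 and 6 among them the log2 ratio of Pclaf was -4.31, and between cells of 10000 to 20000 UMIs it was -2.70 where all cells gave -4.82. Among those cells 5 of 8 genes of the list were 1.5-fold lower, with a median log2 ratio of -0.77 and a sum of 218 CPM against 368 CPM.

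Immediate early genes, which respond within minutes to stress and growth signals, were low as well. Of 14 at 10 CPM or more, 13 were 1.5-fold lower, where 5.06% of all genes were, with a median log2 ratio of -1.60. Fos was at 36.6 CPM against 192 CPM, Egr1 at 7.08 CPM against 38.3 CPM, Klf6 at 16.5 CPM against 51.1 CPM and Cyr61, a matrix-associated signalling protein, at 9.74 CPM against 67.0 CPM. Cluster 9 lifted the comparison, with Fos at 2519 CPM and Cyr61 at 935 CPM. Against the median of the other 15 clusters Fos was still lower, at 36.6 CPM against 66.1 CPM, and Cyr61 at 9.74 CPM against 16.8 CPM. Dissociation of tissue itself induces these genes, and its part in the difference was not tested.

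Several of the lowest genes mark individual other clusters. Lypd8, a surface protein that keeps bacteria from the gut lining, was at 6.86 CPM against 165 CPM, but the comparison level rested on cluster 1 (729 CPM), and the median of the other clusters was 45.7 CPM. Olfm4, a secreted glycoprotein of intestinal stem cells, was at 5.09 CPM against 61.7 CPM, and cluster 5 alone held 685 CPM where the median of the others was 11.8 CPM. Krt5, a keratin of basal and squamous cells, was at 14.8 CPM against 79.5 CPM, with 645 CPM in cluster 5. Upk1a, a plaque protein of the bladder lining, was at 7.97 CPM against 72.8 CPM, with 421 CPM in cluster 5. Plac8, a cysteine-rich protein of many epithelia, was low against a wider set, at 39.8 CPM where the median of the others was 270 CPM. Only clusters 8, 12 and 14 were lower still. The locus listed as RP23-369M17.1 was at 8.85 CPM where the median of the others was 130 CPM. Of the 12 genes with the lowest ratios, cluster 3 ranked 11 to 16 from the highest for each, and it was itself the lowest for 1 of them, Pclaf.

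**Figure D3:**
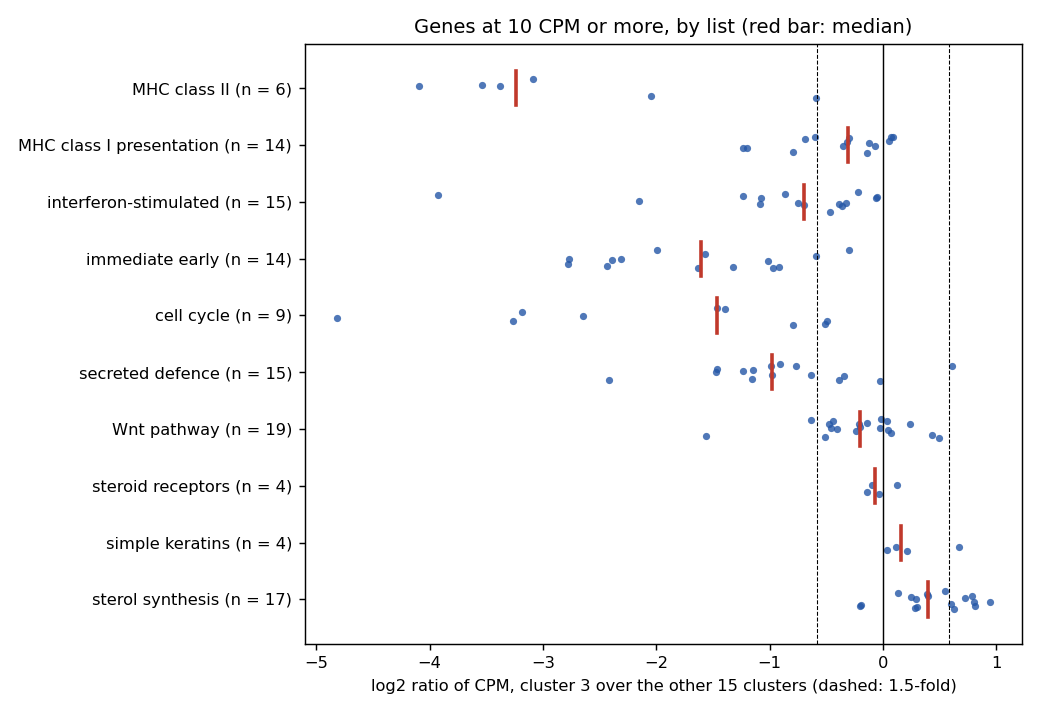
Each point is a gene at 10 CPM or more in cluster 3 or in the other 15 clusters, the x axis gives its log2 ratio of CPM, and the rows are gene lists with the number of genes shown; red bars mark medians and dashed lines 1.5-fold. Medians run from -3.23 for MHC class II to 0.39 for sterol synthesis, and the steroid receptors and simple keratins sit around 0.

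Of the 12 genes with the highest ratios, 3 were haemoglobin genes and 1 was the noncoding RNA Yam1, and these 4 moved with depth. Haemoglobin UMIs had a median of 19 per cell in cluster 3 and of 20 per cell in the other clusters. As a share of all UMIs they made up 0.107% in the shallow cells of cluster 3 against 0.0525%. Whether these transcripts are the cells' own or free RNA was not tested. Yam1 had a mean of 5.40 UMIs per cell against 5.05. Among cells of 10000 to 20000 UMIs, 333 members and 1343 others, the log2 ratios of Hba-a1, Hbb-bt, Hbb-bs and Yam1 were 0.24, 0.22, 0.18 and 0.13, where all cells gave 1.11, 1.10, 0.98 and 1.17.

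Over the alternatives tried, the log2 ratios of the other 8 went no lower than 0.60. Il20rb, a subunit of the receptors for interleukins 19, 20 and 24, was at 50.5 CPM (45.9 to 55.3) against 22.2 CPM, 2.27-fold higher (2.05 to 2.50) and the highest of the 16 clusters, although the 46.5 CPM of cluster 13 lay within its interval. Sema3a, a secreted guidance cue, was at 111 CPM (104 to 118) against 64.7 CPM and also the highest of the 16, although the 104 CPM of cluster 0 lay within its interval. Pdgfc, a growth factor that acts on stromal receptors, was at 52.2 CPM against 29.2 CPM. Kctd4, a little-studied protein of the KCTD family, was at 66.5 CPM against 37.1 CPM.

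Lypd2, a small surface protein of the Ly6 family (chromosome 15, 74732247 to 74734329, minus strand), was at 379 CPM (366 to 391.9) against 180 CPM, 2.11-fold higher (2.04 to 2.19). It was found in 74.1% of members after thinning and in 44.8% of the other cells. Only 3.90% of DES mesothelial cells and 2.37% of CO epithelial cells held a UMI of it. Cluster 14 was higher, at 840 CPM. Serpinb7, an intracellular protease inhibitor of stratified epithelia, was at 343 CPM against 180 CPM, and clusters 14, 12, 7 and 4 exceeded it with 619, 483, 442 and 405 CPM. Lypd2 and Lypd8 are of the same family and lay at opposite ends. Ly6a, another member, was at 140 CPM against 398 CPM, 2.86-fold lower (2.70 to 3.02). Ptn, the growth factor pleiotrophin, was at 787 CPM against 490 CPM, 1.61-fold higher (1.57 to 1.65). Clusters 14 and 8 exceeded it with 1822 and 888 CPM, and the 795 CPM of cluster 4 lay within its counting error. Against the mean of the 15 other clusters the log2 ratio of Ptn fell from 0.68 to 0.46, below the fold used for calling genes. After thinning a UMI of Ptn was in 94.6% of members, 74.4% of the other cells and 35.5% of mesothelial cells.

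Fdps and Msmo1, both enzymes of cholesterol synthesis, were 1.76-fold and 1.75-fold higher. A list of 19 sterol genes was drawn up after this was seen. Of the 17 at 10 CPM or more, 7 were 1.5-fold higher and none 1.5-fold lower, with a median log2 ratio of 0.39. Fdps and Msmo1 are among the 7, so the count is no test of the list. The list summed to 544 CPM in cluster 3, place 4 from the highest of the 16 clusters, and to 838 CPM in cluster 13. Sqle, the squalene epoxidase, was at 25.7 CPM against 13.3 CPM, and Mvk, the mevalonate kinase, at 16.5 CPM against 9.56 CPM. Among cells of 10000 to 20000 UMIs 7 of 17, Fdps and Msmo1 included, were 1.5-fold higher. Of all genes at that level 1.35% were. All but 1 of the levels of these sterol genes were below those of the CO epithelium, where Fdps was at 149 CPM and Sqle at 51.8 CPM. The exception was Dhcr7, at 19.6 CPM in cluster 3 against 10.5 CPM.

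**Figure D4:**
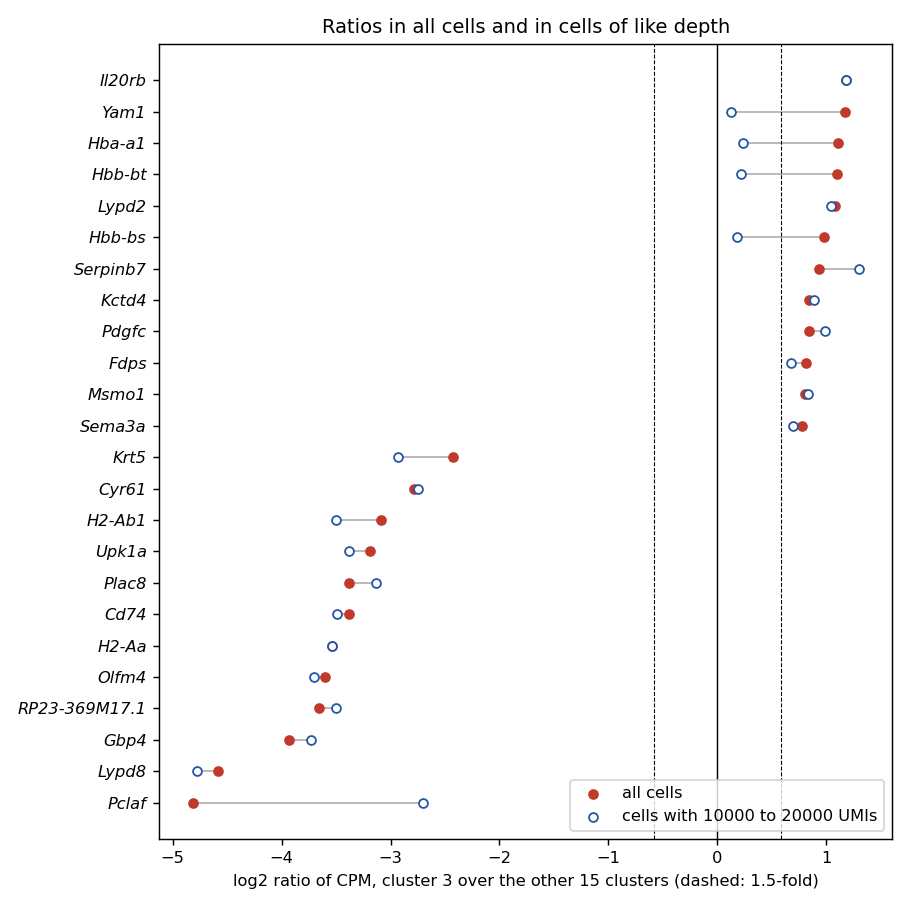
For the 24 named genes (rows), red points give the log2 ratio of cluster 3 over the other 15 clusters in all cells and open blue points the same among cells of 10000 to 20000 UMIs. The 3 haemoglobin genes and Yam1 move to between 0.13 and 0.24, the other higher genes stay right of the 1.5-fold line, and the lower genes are at or below -2.70 among the matched cells.

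Hormone receptors differed little between cluster 3 and the other clusters. Esr1, the oestrogen receptor, was at 212 CPM against 218 CPM, and Pgr, the progesterone receptor, at 105 CPM against 96.1 CPM. Of the 19 Wnt pathway genes at 10 CPM or more, 2 were 1.5-fold lower and none was 1.5-fold higher, where 5.06% and 1.31% of all genes were. The 2 were Sox9, a transcription factor of progenitor cells, at 18.7 CPM against 55.1 CPM, and En2, a homeobox factor, at 6.53 CPM against 10.1 CPM. Among cells of 10000 to 20000 UMIs 5 of the 19 were 1.5-fold lower, where 5.61% of all genes were. The sum of the Wnt list was the lowest of the 16 clusters at 667 CPM, against 670 to 945 CPM, although the 670 CPM of cluster 6 lay within its counting error. Of the 82 cytosolic ribosomal protein genes at 10 CPM or more none was 1.5-fold apart, with a median log2 ratio of 0.17, and both metallothioneins at that level were higher by less than 1.5-fold. Of 6 gland genes listed, Spink1, Prss28 and Prss29 had no UMI in cluster 3 or in any other DES epithelial cluster. The gland regulator Foxa2 was at 13.4 CPM against 16.3 CPM. Sult1d1, a sulfotransferase that the study uses as a general gland marker, was at 12.6 CPM against 18.9 CPM. Rad51b, a DNA repair gene that the study reads as cancer-related, was at 107 CPM against 111 CPM.

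By the whole profile cluster 3 stood closest to cluster 4, then to clusters 8 and 12. Spearman's rho of log2 (CPM + 1) over 3701 genes was 0.96 for each, and it fell to 0.86 for cluster 5. All 3 belong to the clusters of low Cd74. Among the 15 CO clusters the closest was cluster 12, at 0.81. With the counts rebuilt into 14 clusters, 395 members (78.2%) fell into a single rebuilt cluster and formed 62.5% of it, and most of the rest of that cluster came from clusters 8 (144 cells) and 4 (40 cells).

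The cells of cluster 4 held a median of 51066.5 UMIs. Of 2724 genes at 50 CPM or more, 28 were 1.5-fold higher in cluster 3 (1.03%) and 71 lower (2.61%). The 5 lowest were Pclaf (2.10 CPM against 131 CPM), Top2a (3.43 CPM against 54.9 CPM), the tubulin-binding Stmn1 (46.5 CPM against 240 CPM), the chromatin remodeller Hells (16.8 CPM against 68.4 CPM) and the ribonucleotide reductase subunit Rrm1 (15.8 CPM against 58.2 CPM). The 5 highest were Yam1, 3 haemoglobin genes and the nuclear RNA Malat1, at 10055 CPM against 4328 CPM.

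Against cluster 8, 85 of 2700 genes were 1.5-fold higher (3.15%) and 52 lower (1.93%). The stress hormone Crh was at 107 CPM against 28.6 CPM, Prap1 at 486 CPM against 138 CPM, Serpina1c, a serum protease inhibitor, at 443 CPM against 160 CPM, Wnt4 at 70.3 CPM against 26.6 CPM and Spink12, a secreted protease inhibitor, at 1014 CPM against 394 CPM. Cluster 8 held more Gpx2, a glutathione peroxidase of epithelia (72.8 CPM against 7.30 CPM), and more Gstm7, a glutathione transferase (220 CPM against 33.3 CPM). Tesc (73.0 CPM against 12.7 CPM), Id3, an inhibitor of bHLH factors (148 CPM against 40.8 CPM), and the locus AC167121.2 (1125 CPM against 203 CPM) were also higher there.

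Against cluster 12, 54 of 2668 genes were 1.5-fold higher (2.02%) and 68 lower (2.55%). Krt5 was 14.8 CPM in cluster 3 against 355 CPM, Prap1 486 CPM against 4724 CPM, Psca, a GPI-anchored surface protein, 7.64 CPM against 75.3 CPM, Upk3bl 57.1 CPM against 313 CPM and Cmah, which hydroxylates sialic acid, 17.6 CPM against 88.8 CPM. On the higher side were Ifitm1, of the interferon-induced membrane proteins (1217 CPM against 370 CPM), Lbp, which binds bacterial lipopolysaccharide (174 CPM against 66.9 CPM), and the taurine transporter Slc6a6 (79.3 CPM against 33.7 CPM). Il20rb (50.5 CPM against 21.7 CPM) and Thrsp, a regulator of lipid synthesis (56.5 CPM against 25.3 CPM), completed the 5 highest.

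Within cluster 3 the members fell into 2 parts of nearly equal size when CO and DES epithelium were clustered jointly by the authors. Joint cluster 3 took 230 members and joint cluster 6 took 216, with 59 in 3 others. Lypd2 was at 411 CPM and 345 CPM in these parts, Cd74 at 46.8 CPM and 58.0 CPM, Il20rb at 53.8 CPM and 47.3 CPM and Serpinb7 at 386 CPM and 271 CPM, none of them 1.5-fold apart. Plac8, at 27.7 CPM and 48.2 CPM, and Krt5, at 10.1 CPM and 21.6 CPM, were higher in the second and below the 50 CPM used for counting. Of 2657 genes at 50 CPM or more, 2 were 1.5-fold higher in the first part and 13 in the second. Among the 13 were mitochondrial transcripts, such as mt-Atp6 at 23578 CPM and 39312 CPM and mt-Co3 at 23697 CPM and 39498 CPM, and Sprr1a, a protein of cornified envelopes, at 39.8 CPM and 68.7 CPM. Over single cells, Lypd2 had quartiles of 1.45, 3.22 and 5.37 UMIs per 10000 and was at 0 in 43 of the 505. Cd74 was at 0 in 295, and the 51 members with most Cd74 held 59.2% of its UMIs, with up to 42 UMIs in a cell.

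Beside the CO epithelium, measured in the other library, the class II level of cluster 3 lay within the range of the groups compared. Cd74 was at 30.2 CPM in the luminal and 11.9 CPM in the glandular CO clusters, below the 54.8 CPM of cluster 3. In CO cluster 12, the closest by profile, it was at 57.1 CPM, H2-Ab1 at 17.0 CPM against 8.96 CPM and Serpinb7 at 408 CPM against 343 CPM. Plac8 was far higher in CO luminal cells, at 1609 CPM, and Lcn2 was at 8186 CPM there. Lypd2 was at 6.15 CPM in luminal and 0.574 CPM in glandular CO cells, and Ptn at 74.4 CPM and 12.2 CPM. Fos was at 1056 CPM in luminal CO cells. With 1 library per condition these differences have no replicate check, and library and exposure cannot be told apart.

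The spatial sections gave a readout that did not enter the clustering, from a separate group of mice. UMIs were summed over each section, 2 CO and 2 DES, and the named genes were read from a test over all 14098 genes that passed edgeR's filter (quasi-likelihood test, Benjamini-Hochberg adjustment), of which 2.67% were higher and 2.63% lower in DES. A whole section mixes all tissues, so more cells of a type and more RNA per cell cannot be told apart. The paper reports a tissue fold in CO section B and limited identification of clusters in DES section B. It left both out of most analyses. These are section 2 of each group here, and both were kept as full replicates. The CO sections differed widely for some genes, such as Lcn2 (8116 and 884 CPM) and Prap1 (2925 and 30907 CPM). C3 differed little between them, at 4657 and 4589 CPM. The part of the fold in this was not tested. Of the 12 genes highest in cluster 3, 1 rose and 1 fell in the DES sections, and of the 12 lowest, 2 rose and none fell. Separation of the sections alone was common: of all genes tested, 43.8% had both DES sections above both CO sections in CPM and 17.9% had both below.

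Lypd2 was at 4.64 and 1.45 CPM in the CO sections and at 141 and 58.0 CPM in the DES sections. Both DES sections exceeded both CO sections, by a log2 fold change of 4.78 ± 0.72 (SE, n = 2 sections per group; edgeR adjusted p = 0.0356, and 1.79e-13 to 0.107 over the alternatives). Serpinb7 was at 32.8 and 7.07 CPM in CO and at 431 and 441 CPM in DES. Its groups did not overlap either, but its adjusted p in edgeR was 0.0522 in whole sections and 0.0461 in the spots richest in epithelial markers (1.7e-10 to 0.161 over the alternatives). Sema3a went the opposite way, with 55.9 and 48.5 CPM in CO and 13.3 and 14.98 CPM in DES, a log2 fold change of -2.09 ± 0.20 (SE, n = 2 sections per group; edgeR adjusted p = 0.0212, and 5.2e-10 to 0.140 over the alternatives). Neither call held without DES section 1 or DES section 2, while the log2 fold changes were then 4.03 and 5.24 for Lypd2 and -1.99 and -2.23 for Sema3a. Il20rb overlapped between the groups, with 26.2 and 8.43 CPM in CO and 11.5 and 5.47 CPM in DES.

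Among the genes low in cluster 3, Olfm4 was at 0.400 and 2.18 CPM in CO and at 1534 and 1340 CPM in DES (edgeR adjusted p = 0.0183), a call that was lost without DES section 1 or DES section 2 while the log2 fold change of 9.94 was then 9.87 and 9.99. Upk1a was at 0.800 and 0.906 CPM in CO and at 193 and 207 CPM in DES (edgeR adjusted p = 0.00793). Both were thus abundant in these DES sections and scarce in cluster 3. The DES blocks were evaluated for adenocarcinoma and cored to areas of interest before sectioning. The paper reports Olfm4 as high in the cancer regions, so these levels may not hold for exposed uterus in general. The class II genes were higher in the DES sections without passing edgeR's threshold in whole sections as fitted here. Cd74 was at 170 and 273 CPM in CO and at 872 and 2317 CPM in DES (edgeR adjusted p = 0.0688), and in epithelium-rich spots its edgeR adjusted p was 0.0363 (1.62e-06 to 0.188 over the alternatives). H2-Aa was at 59.6 and 102 CPM in CO and at 336 and 651 CPM in DES, and H2-Ab1 at 80.9 and 143 CPM in CO and at 418 and 821 CPM in DES. For both genes every DES section lay above every CO section. The edgeR adjusted p of H2-Aa was 0.0536 in whole sections and 0.0217 in epithelium-rich spots (5.07e-07 to 0.186 over the alternatives, the lowest with DESeq2), and that of H2-Ab1 0.0625 and 0.0264 (3.76e-06 to 0.216, the lowest with DESeq2). Immune cells carry the same transcripts, and most of their markers were at a higher level in the DES sections as well. The 6 myeloid markers summed to 462 and 888 CPM in CO and to 2483 and 1421 CPM in DES. Both DES sections were above both CO sections for 5 of 6, as for 43.8% of all genes tested. None of the 6 passed edgeR's adjusted threshold in whole sections (2 had an unadjusted p under 0.05, and DESeq2 called 1, Lyz2), and 4 did in epithelium-rich spots, where 4.24% of all genes were called higher and 2.66% lower. The 6 lymphocyte markers summed to 15.4 and 24.3 CPM in CO and to 35.6 and 46.1 CPM in DES. Of these, 5 of 6 were higher in both DES sections, beside the same 43.8% of all genes tested. Cd79a, of the B cell receptor, had an edgeR adjusted p of 0.0312 in whole sections and 0.0529 in epithelium-rich spots (1.55e-06 to 0.185 over the alternatives). Nkg7, of cytotoxic lymphocytes, was lower in both DES sections, with 3.76 and 5.80 CPM in CO and 1.86 and 2.02 CPM in DES (edgeR adjusted p = 0.105). The part of immune cells in the class II levels was not tested. Krt5 was at 0.800 and 93.4 CPM in CO and at 5276 and 3562 CPM in DES, and Plac8 at 1009 and 796 CPM in CO and at 208 and 438 CPM in DES, with edgeR adjusted p of 0.142 (0.00286 to 0.320 over the alternatives) and 0.0973 (0.000819 to 0.328). Lypd8 was at 1.12 and 0.363 CPM in CO and at 5.81 and 66.3 CPM in DES, with an edgeR adjusted p of 0.105 (0.0092 to 0.333 over the alternatives). DESeq2 called Krt5, Plac8 and Lypd8. RP23-369M17.1 was at 15.3 and 158 CPM in CO and at 10.97 and 13.4 CPM in DES, so the CO sections themselves differed widely. The other 11 named genes overlapped between the groups.

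**Figure D5:**
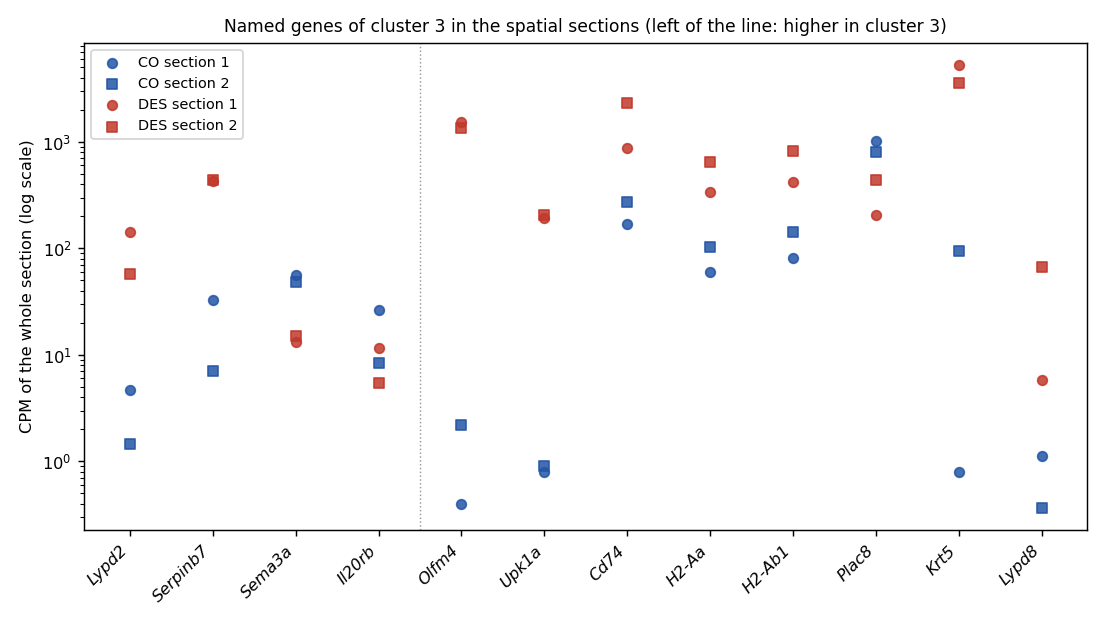
The y axis gives the CPM of each whole section on a log scale for 12 named genes (x axis), with 1 point per section. Both DES sections (red) lie above both CO sections (blue) for Lypd2, Serpinb7, Olfm4, Upk1a, Cd74, H2-Aa, H2-Ab1, Krt5 and Lypd8 and below them for Sema3a and Plac8, and Il20rb overlaps.

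Across the epithelium-rich spots of a section, the share of UMIs in the 10 highest genes of cluster 3 and the share in the 10 lowest had no common relation. Spearman's rho over 339 to 458 spots per section was -0.06 and -0.05 in the CO sections and 0.17 and -0.15 in the DES sections. The 10 highest include haemoglobin genes. Without these, in a setting that was not planned, rho was -0.05 and -0.04 in CO and 0.19 and -0.17 in DES. Both shares also went with the UMIs of a spot, with rho of 0.16 to 0.24 for the 10 highest and 0.04 to 0.22 for the 10 lowest. A spot holds several cells, the counts of these genes are sparse, and the spots share a section, so these are descriptions without a test.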

How the data were processed

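The submitters' processing notes name Cell Ranger 3.0.1 for the cells, Space Ranger 1.2.2 for the spots and mm10. The deposited values are UMI counts, not normalized. They removed doublets with scran and assigned the clusters. Saturation, a fraction deposited by the authors, enters no result. Sums of UMIs per group of cells were converted to CPM. Genes were called at a ratio of 1.5 or more either way, at 50 CPM or more in either group (10 CPM for gene lists). Ratios carry exact 95% intervals, and shares exact Clopper-Pearson intervals after thinning to 5000 UMIs (seed 20231). A count of 0 was set to a floor of 3 UMIs over the group. Named genes were the 12 highest and 12 lowest ratios at 50 CPM or more, up to 4 members of each gene list with the largest log2 ratio in size, all members of lists of 9 or fewer where needed, cell type markers, the 5 highest and 5 lowest ratios against each of the 3 closest clusters, and genes that the study names for these clusters. Members and lists were chosen with earlier results of these data known. Other list members, the sterol list, genes of the contrast within the cluster and the band of 10000 to 20000 UMIs were chosen after their values were seen. Clusters were rebuilt with scanpy 1.11.5 (2000 variable genes, 30 components, 20 neighbours, Leiden resolution 1). Section sums (9117099 to 12506177 UMIs) were tested with edgeR 4.0.16 (TMM, its low-count filter, adjusted p under 0.05). DESeq2 1.42.0 was an alternative. The edgeR procedure was tested on simulated data. Each section is from a separate mouse, and its p-values measure the spread between these sections. Gene positions are from GENCODE on GRCm38, and promoters from RefSeq. Some members of the gene lists are not reported here.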

Additional observations from a re-analysis of the deposited data

How the results depend on the processing

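The counts of genes past 1.5-fold stayed within 1.5 times the reported 23 and 115 under 8 of 9 alternatives. With genes from 10 CPM they were 107 higher and 412 lower, because more genes were counted. The restriction to cells of 10000 to 20000 UMIs was chosen after the data were seen and gave 18 higher and 112 lower. Of the 248 log2 ratios of 31 genes recomputed, 245 kept their sign, and the 3 that did not were all of Epcam, whose ratio of 0.05 became -0.00841 as a mean over cells, -0.0135 after thinning and -0.0723 among cells of 10000 to 20000 UMIs. The share of members in a single rebuilt cluster was 90.5% at resolution 0.5 and 57.4% at resolution 2. In the sections, edgeR called 376 genes higher and 371 lower, and DESeq2 822 and 969. Leaving out each section in turn gave 3 to 1311 higher and 0 to 1508 lower, with the lowest counts without DES section 1 (14 and 0) or DES section 2 (3 and 0), where edgeR's unadjusted p was under 0.05 for 894 and 871 lower genes. Without either DES section the lone one is assumed to vary like the CO sections, and Lypd2, Sema3a and Olfm4 were then not called, while Upk1a was called under every alternative. Every one of the 104 recomputed section fold changes of 13 named genes kept its sign. Over all spots rho was 0.0243 in CO section 1 and 0.112 in DES section 2, against -0.06 and -0.15 in epithelium-rich spots. No paired analysis was possible because no animal, litter or day that would pair the sections is recorded. Depth limits what can be said of genes near the level of Pclaf, Ciita or H2-Eb1 in cluster 3, with 19, 4 and 24 UMIs.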
